A study of Mus musculus with 2 samples.

Results

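The genes described here encode cytochrome P450 enzymes, the heme-containing monooxygenases that oxidise drugs, steroids, bile acids, retinoids and fatty acids. They were chosen by name: every gene entry whose Ensembl identifier carries a protein-coding symbol of the form Cyp, family number, subfamily letter and gene number in the GENCODE M21 annotation, other than Cyp2e1, Cyp1a2 and Cyp2f2, which were set aside. This gave 90 genes of 38320 gene entries, and all 90 lay at overlapping positions in the files and the annotation. By family number there were 2 genes in family 1, 46 in family 2, 7 in family 3, 17 in family 4 and 18 in families 7 and above.

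Each library was a pool of RNA from adherent liver cells, collected after 2 h of plating to enrich for hepatic stellate cells (HSCs) and myofibroblasts, and there was 1 library per genotype. Both groups were adult male mice on a C57/Bl6 background that received carbon tetrachloride (CCl4), a hepatotoxin that P450 enzymes activate, for 5 weeks, and that carried floxed Foxf1 alleles. The control mice were Foxf1 fl/fl littermates, and the other group was αSMACreER;Foxf1 fl/fl, in which a tamoxifen-inducible Cre driven by the α-smooth muscle actin promoter deletes Foxf1 only in cells that have turned that promoter on. After deletion these are written αSMACreER;Foxf1-/-. Tamoxifen was injected during the CCl4 course to trigger the deletion. Foxf1 was not analysed here, so the deletion was not checked in these libraries. The number of animals in a pool is not stated in the labels or methods. With 1 pool per genotype the spread between animals is unknown, so differences are described without tests.

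In liver the enzymes of families 1 to 3 work mainly in hepatocytes, where they oxidise foreign compounds and steroids with electrons from the reductase Por. Family 4 enzymes hydroxylate fatty acids and eicosanoids, and the higher families act on chosen substrates such as cholesterol, bile acids, steroid hormones and retinoic acid. Many P450 genes of one subfamily sit side by side in the genome as recent duplicates, and their hepatocyte expression is controlled by nuclear receptors such as PXR (Nr1i2), CAR (Nr1i3), PPARα (Ppara) and HNF4α (Hnf4a).

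The proteins share a loop whose cysteine holds the heme iron. A pattern of phenylalanine, glycine, arginine, cysteine and glycine at the loop's usual spacing was found by translating the coding sequence of the longest protein-coding transcript, and 82 of the 90 genes had it. The 8 whose searched transcript lacked it were Cyp7a1, Cyp7b1, Cyp8b1, Cyp17a1, Cyp20a1, Cyp2s1, Cyp39a1 and Cyp3a59. The transcripts searched for Cyp17a1 and Cyp2s1 held 455 and 448 codons, and other transcripts of these genes, which may hold the pattern, were not searched. The matching 30 bases are shown for genes that differed in how far they fell, with the cysteine codon in capitals.
Cyp3a11: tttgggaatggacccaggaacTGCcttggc
Cyp2c29: ttttcaacaggaaaacggattTGTgctgga
Cyp2a4: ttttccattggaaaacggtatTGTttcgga
Cyp2a5: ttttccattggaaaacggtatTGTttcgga
Cyp2d9: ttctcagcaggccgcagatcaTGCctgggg
Cyp2d22: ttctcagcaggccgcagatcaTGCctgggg
Cyp4f15: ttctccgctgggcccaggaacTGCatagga
Cyp4f18: ttctcggctgggcccaggaacTGCatagga
Cyp1b1: ttctcagtgggcaaacggaggTGCatcggt
Cyp26b1: tttggcggtggcgtgcggaccTGCctgggc
The stretch was identical in Cyp2a4 and Cyp2a5 and in Cyp2d9 and Cyp2d22, and the 82 genes held 67 distinct stretches. Such likeness bears on the measurements, because a 75-base read from a shared stretch cannot be assigned to 1 gene. Of the 90 genes, 37 had at least 5% of their 75-base windows in common with transcripts of another gene. Among the genes measured at a usable level the highest share was 36.0%, for Cyp2c67, and Cyp2a4 and Cyp2a5 had 22.1% and 25.5%. Cyp2c68, Cyp2d10 and Cyp4a10 shared 28.5%, 26.7% and 19.1%, so the single values of these genes are uncertain, whereas Cyp2c70, Cyp2c23 and Cyp4a14 shared 0%.

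Levels are in FPKM, read number per kilobase of transcript relative to the mapped total of the library, which allows comparison between genes of unlike length. Differences are log2(FPKM + 0.1) in αSMACreER;Foxf1-/- minus Foxf1 fl/fl cells after the median ratio of all genes was set to 1 (a division by 1.02), which shrinks the differences of genes with values close to 0. The intervals beside them are approximate 95% counting intervals, from estimated read numbers, and cover counting error only. A gene was summarised when its mean FPKM was at least 1 and was called lower or higher from a difference of 1.5-fold.

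Of the 90 genes, 67 were above 0 in Foxf1 fl/fl cells and 65 in αSMACreER;Foxf1-/- cells, and 22 were listed at 0 in both. The required mean FPKM of 1 was reached by 42 genes. Of these 42, 29 (69.0%) were at least 1.5-fold lower in αSMACreER;Foxf1-/- cells, 12 lay within 1.5-fold and 1 was at least 1.5-fold higher. Over all 12839 genes at that level, 13.2% were at least 1.5-fold lower and 12.9% at least 1.5-fold higher. At 2-fold, 19 of the 42 were lower, against 6.22% of all genes, and 37 were lower to any extent, against 49.6%. The median log2 difference was -0.91 for the 42 genes and 0.0057 for all genes. The level requirement favours genes that differ, and 7 of the 42 passed it through the Foxf1 fl/fl library alone. These were Cyp2c23, Cyp2c67, Cyp2d40, Cyp3a13, Cyp4f15, Cyp8b1 and Cyp39a1, and all 7 are among the 29. When each library had to reach 1 by itself, 35 P450 genes qualified and 22 of them were at least 1.5-fold lower, against 11.4% of the 11995 genes that qualified. With the trend in transcript length removed, 26 of the 42 were at least 1.5-fold lower, against 11.1% of all genes.

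**Figure D1:**
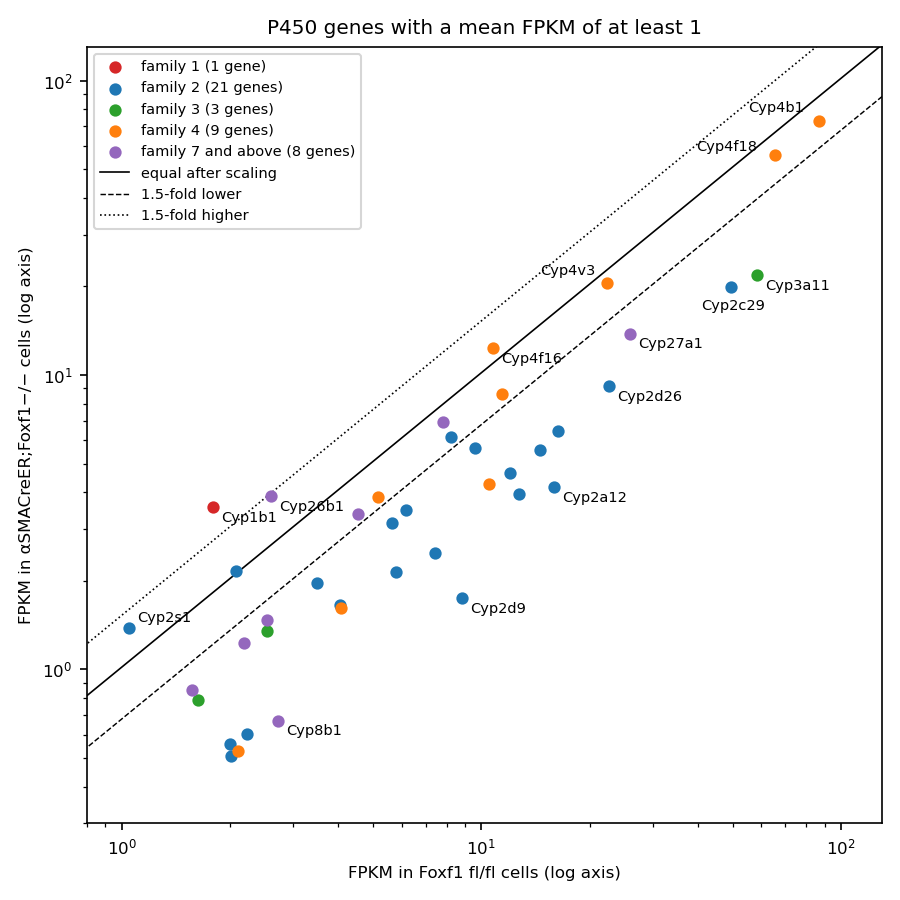
FPKM of the 42 P450 genes above the level requirement in Foxf1 fl/fl cells (x axis, log scale) and in αSMACreER;Foxf1-/- cells (y axis, log scale), 1 point per gene, coloured by family. The 29 points on or below the dashed line are at least 1.5-fold lower after scaling, and Cyp1b1 alone lies above the dotted line of a 1.5-fold rise.

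The families differed in how much of their signal was lower. Family 2 summed to an FPKM of 217 in Foxf1 fl/fl cells and 89.7 in αSMACreER;Foxf1-/- cells, and family 3 to 63.7 and 24.2. Family 4 summed to 220.4 and 183, families 7 and above to 51.8 and 33.5, and family 1 to 2.42 and 4.61. These sums and the shares that follow leave out the genes set aside. Cyp1a2 had 15.5 and 5.51, so family 1 was higher only without it. In family 2, Cyp2e1 had 94.3 and 26.9 and Cyp2f2 had 5.81 and 2.59. The family 2 share of the summed P450 signal was 39.0% in Foxf1 fl/fl and 26.8% in αSMACreER;Foxf1-/- cells, whereas the family 4 share was 39.7% and 54.6%. The median log2 difference was -1.35 for 21 family 2 genes, -0.99 for 3 family 3 genes, -0.42 for 9 family 4 genes and -0.79 for 8 genes of families 7 and above. In these groups 18, 3, 3 and 5 genes were at least 1.5-fold lower (85.7%, 100%, 33.3% and 62.5%, against 13.2% of all genes). These counts include the 7 genes that passed the level requirement through the Foxf1 fl/fl library alone. The whole set held 0.0736% of the summed FPKM of the Foxf1 fl/fl library and 0.0502% of that of the αSMACreER;Foxf1-/- library.

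**Figure D2:**
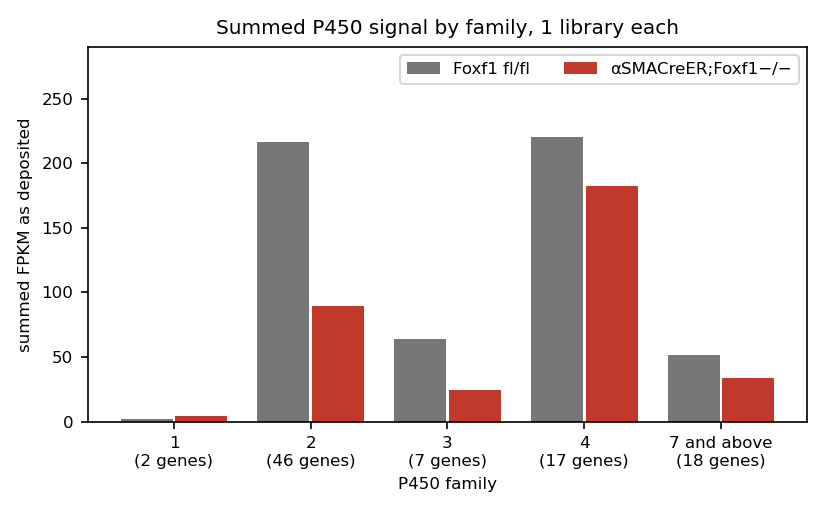
Summed FPKM as deposited (y axis, from 0) of the P450 genes of each family (x axis) in the Foxf1 fl/fl library (grey bars) and the αSMACreER;Foxf1-/- library (red bars), without error bars because each bar is 1 library. Families 2 and 3 are lower by more than a factor of 2, and family 4 falls from 220.4 to 183. Family 1, here without Cyp1a2, is the smallest in both.

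All 3 measured family 3 genes and most of family 2 were lower. Cyp3a11, the main drug-oxidising P450 of mouse liver and a PXR target, had an FPKM of 58.3 in Foxf1 fl/fl and 21.8 in αSMACreER;Foxf1-/- cells. Its log2 difference was -1.44 (counting interval -1.57 to -1.31), and it lies on chromosome 5 from 145854426 to 145879964 of GRCm38, minus strand. Cyp3a25 had 2.54 and 1.35, and Cyp3a13 had 1.63 and 0.785. Cyp3a11 thus carried most of the family 3 signal, and Cyp3a13 no longer passed 1.5-fold with a pseudocount of 1 (-0.57). Cyp3a13 had reached the level requirement through the Foxf1 fl/fl library alone.
All 8 Cyp2c genes at the required level were at least 1.5-fold lower, from -0.79 for Cyp2c50 to -1.82 for Cyp2c23, within a group of 15 genes on chromosome 19 between 39007019 and 44029208. Cyp2c23 and Cyp2c67 reached that level through the Foxf1 fl/fl library alone, which favours a fall. Among the others the largest fall was -1.57, for Cyp2c68. Cyp2c29, an enzyme that oxidises drugs and arachidonic acid, had an FPKM of 49.3 and 19.9 and a log2 difference of -1.33 (-1.47 to -1.19). Cyp2c70, which makes the muricholic bile acids of mice, had 16.3 and 6.46.
The Cyp2a genes were lower to a similar degree. Cyp2a12 had an FPKM of 15.9 and 4.16 and a log2 difference of -1.94 (-2.19 to -1.68), Cyp2a4 had 14.6 and 5.55, and Cyp2a5, the coumarin hydroxylase, had 11.99 and 4.65. The Cyp2a subfamily summed to 42.7 and 14.6.
The Cyp2d genes spanned the widest range among the family 2 subfamilies. Cyp2d9, a testosterone hydroxylase typical of male liver, had an FPKM of 8.85 and 1.75 and the largest fall of the 42 genes, -2.30 (-2.85 to -1.75). Cyp2d26 had 22.7 and 9.16. Cyp2d22 had 8.22 and 6.15, a log2 difference of -0.44 (-0.69 to -0.18), and was the only Cyp2d gene of 5 that stayed within 1.5-fold. Its difference exceeded that of Cyp2d9 by 1.86 (1.26 to 2.46).
Among the phenobarbital-responsive Cyp2b genes, Cyp2b10, a CAR target, had 6.16 and 3.48, and Cyp2b9 had 4.04 and 1.65.

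**Figure D3:**
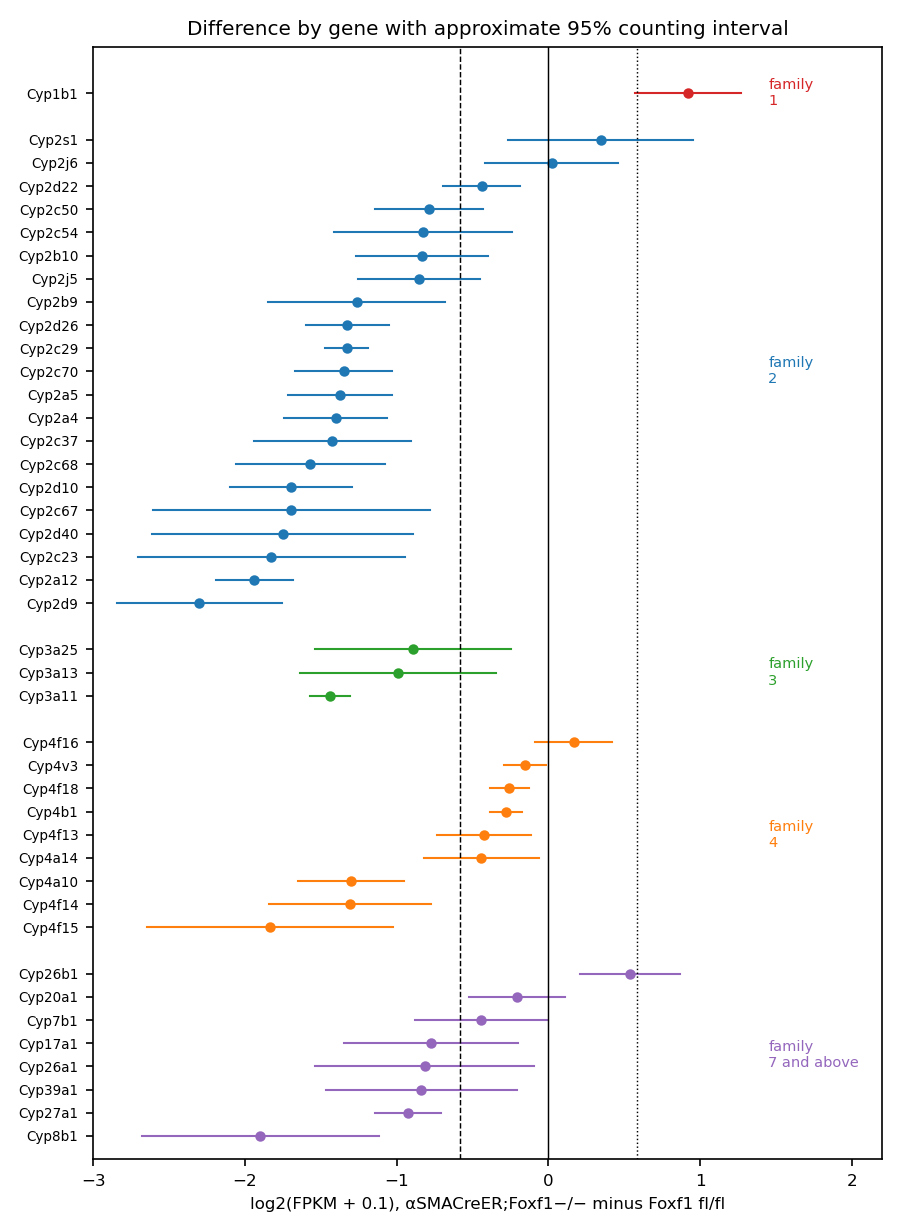
Log2 difference of each of the 42 P450 genes (x axis, αSMACreER;Foxf1-/- minus Foxf1 fl/fl, pseudocount 0.1) with its approximate 95% counting interval (horizontal line), grouped and coloured by family. The dashed and dotted lines mark 1.5-fold lower and higher; 18 of 21 family 2 genes and 3 of 9 family 4 genes lie at or beyond the dashed line.

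Family 4 divided within itself. Its 3 most abundant genes all stayed within 1.5-fold. Cyp4b1, a hydroxylase of fatty acids and foreign compounds, had an FPKM of 87.0 in Foxf1 fl/fl and 73.0 in αSMACreER;Foxf1-/- cells, a log2 difference of -0.28 (-0.38 to -0.17). Cyp4f18, which inactivates leukotriene B4 in myeloid cells, had 65.5 and 55.8, a log2 difference of -0.26 (-0.39 to -0.13). Cyp4v3, a widely expressed fatty acid hydroxylase, had 22.4 and 20.5, a log2 difference of -0.15 that turned to 0.05 when both libraries were set to the same FPKM total. Once the trend with transcript length was removed, Cyp4b1 stood at -0.07, Cyp4f18 at -0.01 and Cyp4v3 at -0.25. Cyp4b1, Cyp4f18 and Cyp4v3 were the first, the second and the fourth most abundant of the set in αSMACreER;Foxf1-/- cells.
In the Cyp4f genes on chromosome 17, Cyp4f16 had 10.8 and 12.4 (log2 difference 0.17) and Cyp4f13 had 11.4 and 8.62 (-0.42), while Cyp4f14 had 4.07 and 1.61 (-1.31) and Cyp4f15 had 2.11 and 0.528 (-1.83). The difference of Cyp4f16 exceeded that of Cyp4f14 by 1.48 (counting interval 0.88 to 2.07), and that of Cyp4f18 on chromosome 8 exceeded that of Cyp4f15 by 1.58 (0.76 to 2.40). Cyp4f16 shared 16.1% of its 75-base windows with other genes, and Cyp4f15 reached the level requirement through the Foxf1 fl/fl library alone.
The PPARα-responsive Cyp4a10 and Cyp4a14, which hydroxylate the ends of fatty acids, also parted. Cyp4a10 had 10.5 and 4.27 (-1.30) and Cyp4a14 had 5.16 and 3.84 (-0.44), a gap of 0.86 (0.35 to 1.37). All pairs compared here were picked after their values were seen.

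The higher families include the sterol and bile acid enzymes, most of which were lower. Cyp27a1, a mitochondrial sterol hydroxylase, had an FPKM of 25.8 and 13.8 and a log2 difference of -0.92 (-1.14 to -0.71). Cyp8b1, which directs bile acid synthesis to cholic acid, had 2.72 and 0.669 and the largest fall of these families, -1.90 (-2.68 to -1.11). Cyp39a1, an oxysterol hydroxylase, had 1.57 and 0.85. Cyp8b1 and Cyp39a1 both passed the level requirement through the Foxf1 fl/fl library alone. Cyp7b1, the oxysterol hydroxylase of the alternative bile acid pathway, had 4.53 and 3.36, a log2 difference of -0.44 (-0.88 to -0.0082). Cyp7a1, the rate-limiting enzyme of bile acid synthesis, was below the level requirement with 0.667 and 0.323, about 26 and 15 reads.
Cyp17a1, a steroid hydroxylase and lyase, had 2.54 and 1.47. Cyp20a1, an enzyme with no settled substrate, had 7.84 and 6.90, a log2 difference of -0.21 (-0.52 to 0.11).
The retinoic acid hydroxylases moved apart. Cyp26a1 had an FPKM of 2.19 in Foxf1 fl/fl and 1.23 in αSMACreER;Foxf1-/- cells, whereas Cyp26b1 had 2.59 and 3.88, a log2 difference of 0.54 (0.21 to 0.87). Their differences were 1.35 apart (0.56 to 2.15). Cyp26b1 crossed the 1.5-fold line at 0.59 under upper-quartile scaling and at 0.74 under equal FPKM totals, and lay farther from it at 0.42 with a pseudocount of 1 and at 0.35 without the length trend.

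The genes that did not fall 1.5-fold numbered 13: Cyp1b1, Cyp2d22, Cyp2j6, Cyp2s1, Cyp4a14, Cyp4b1, Cyp4f13, Cyp4f16, Cyp4f18, Cyp4v3, Cyp7b1, Cyp20a1 and Cyp26b1. They held 41.5% of the P450 signal in Foxf1 fl/fl cells and 60.2% in αSMACreER;Foxf1-/- cells, and their summed FPKM was 230.3 and 201. The 29 genes that were at least 1.5-fold lower summed to 315 and 126. These sums restate how the genes were divided. Of the 13, 5 were higher in αSMACreER;Foxf1-/- cells to any extent.
Cyp1b1, which oxidises estradiol and aromatic hydrocarbons and is known from mesenchymal cells, was the gene called higher. It had an FPKM of 1.79 and 3.55, about 86 and 198 reads, and a log2 difference of 0.92 (0.57 to 1.27), and it lies on chromosome 17 from 79701537 to 79715061, minus strand. Cyp1a1, the other family 1 gene that was not set aside, had 0.622 and 1.06, with a counting interval that holds 0 (-0.13 to 1.44). Both are known targets of the aryl hydrocarbon receptor.
Cyp2s1, known mainly from epithelia outside the liver, had 1.05 and 1.38 (-0.26 to 0.95). Cyp2j6 had 2.08 and 2.15, a log2 difference of 0.02 (-0.42 to 0.46) that became -0.07 when the trend with transcript length was removed. Its relative Cyp2j5, an arachidonic acid epoxygenase, had 5.65 and 3.14 (-0.85), a gap of 0.87 (0.28 to 1.47).
The genes nearest the 1.5-fold line were Cyp17a1 (-0.77) and Cyp2c50 (-0.79) on the lower side and Cyp7b1 (-0.44) and Cyp4a14 (-0.44) on the other. Transcripts were shorter in the lower group, with a median length of 1916 bases against 2496 bases in the 13 and 3068 over all genes, and the part of length in the differences was not tested beyond the removal of its trend.

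The 48 genes below the level requirement comprised the 22 at 0 and 26 with low values. Of these 26, 19 were lower and 7 higher in αSMACreER;Foxf1-/- cells. That split is to any extent and many of the values rest on few reads. The same split over all genes below the requirement was not computed. The nearest to the requirement was Cyp2c40, with 1.61 and 0.12, about 25 and 2 reads, and 57.1% of its windows were shared with other genes. Cyp4a31 went the other way, with 0.221 and 1.21, about 5 and 32 reads. Cyp2c38, Cyp2c69 and Cyp2d34 were listed at 0 in αSMACreER;Foxf1-/- cells and had 0.279, 0.132 and 0.160 in Foxf1 fl/fl cells, whereas Cyp4f37 was listed at 0 in Foxf1 fl/fl cells and had 0.173. The genes at 0 in both libraries included the steroidogenic Cyp11b1, Cyp11b2, Cyp19a1 and Cyp21a1, the vitamin D-degrading Cyp24a1, the brain cholesterol hydroxylase Cyp46a1, and 11 of the 46 family 2 genes. For these 22 genes, 3 reads would correspond to an FPKM of 0.0736 to 0.234 in the Foxf1 fl/fl library and of 0.0634 to 0.202 in the αSMACreER;Foxf1-/- library.

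The promoter side was described with RefSeq sequences (build GRCm38.p6), which matched 34 of the 42 genes by symbol. Those without an entry were Cyp2d22, Cyp2c54, Cyp2c23, Cyp4a10, Cyp4a14, Cyp7b1, Cyp17a1 and Cyp39a1. The 250 bases before the most upstream RefSeq start were searched on both strands for 5 words: TATAAA, CAAAGTCCA (a word bound by HNF4α), GTTAAT (an HNF1 half-site), AGGTCA (a nuclear receptor half-site) and GCGTG (the core bound by the aryl hydrocarbon receptor). That start lay within 50 bases of the GENCODE gene boundary for 27 of the 34 genes and farther inside the gene for 7. The distance was 53 bases for Cyp4v3, 110 for Cyp3a11, 388 for Cyp2s1, 17680 for Cyp2c29 and 18940 for Cyp2d9. Those windows lie wholly or partly within the longer GENCODE gene. The last 120 of these bases are shown for Cyp3a11, Cyp2c70 and Cyp8b1, which were lower, and for Cyp4v3 and Cyp2s1, which were not, with these words in capitals.
Cyp3a11: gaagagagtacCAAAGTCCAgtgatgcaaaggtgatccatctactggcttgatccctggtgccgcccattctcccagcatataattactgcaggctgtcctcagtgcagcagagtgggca
Cyp2c70: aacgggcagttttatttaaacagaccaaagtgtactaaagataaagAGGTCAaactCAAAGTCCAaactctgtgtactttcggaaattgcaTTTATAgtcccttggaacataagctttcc
Cyp8b1: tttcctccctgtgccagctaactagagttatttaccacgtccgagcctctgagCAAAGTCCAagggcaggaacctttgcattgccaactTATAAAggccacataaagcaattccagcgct
Cyp4v3: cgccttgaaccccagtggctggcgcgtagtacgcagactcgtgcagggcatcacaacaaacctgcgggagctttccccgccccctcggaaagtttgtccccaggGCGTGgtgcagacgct
Cyp2s1: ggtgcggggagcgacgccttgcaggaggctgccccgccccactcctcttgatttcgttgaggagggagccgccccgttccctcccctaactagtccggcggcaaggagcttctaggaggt
They lie at chr5:145879855-145879974, chr19:40187287-40187406, chr9:121916306-121916425, chr8:45333164-45333283 and chr7:25816526-25816645, all on the minus strand, and are written 5′ to 3′ of the gene.
CAAAGTCCA was present in 5 of the 24 promoters of genes that were lower (Cyp3a11, Cyp2c70, Cyp8b1, Cyp2c67 and Cyp2c68), in 0 of the 10 of genes that were not, and in 0.377% of all 27025 promoters. TATAAA was present in 13 of the 24, in 1 of the 10 (Cyp26b1) and in 12.98% of all. GTTAAT was found in 4, 0 and 6.54%, AGGTCA in 6, 0 and 13.8%, and GCGTG in 3, 4 and 28.3%. The median number of CpG dinucleotides was 1 in the 24, 5 in the 10 and 6 over all promoters. Cyp4v3 and Cyp2s1 had 17 and 15, and all the lower genes shown hold CAAAGTCCA, so the sequences shown are not typical of their groups. Neighbouring genes of 1 subfamily have related promoters, so these counts are not independent, and a word is not a bound site.

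Genes that serve the P450 enzymes had a median log2 difference of -0.18 for electron donors and partners and -0.32 for heme genes. Por, the reductase that supplies their electrons, had an FPKM of 229 and 206, and Cyb5a, the cytochrome that assists them, had 369 and 221 (log2 difference -0.76). Cyb5a was the 1 of 8 electron donors and partners that was at least 1.5-fold lower (12.5%, against 13.2% of all genes). Of 12 genes of heme synthesis and breakdown, 2 were at least 1.5-fold lower (16.7%), including Alad with 17.7 and 9.93. Alas1, which controls the rate of heme synthesis, had 143 and 135. Urod, a decarboxylase later in the pathway, was higher, with 16.1 and 27.9.
Among the regulators, 11 of 13 passed the level requirement, with 3 at least 1.5-fold lower (27.3%) and 3 at least 1.5-fold higher. Over all genes the shares were 13.2% and 12.9%. Hnf4a had 5.99 and 2.79, the bile acid receptor Nr1h4 had 3.67 and 1.76, and Nr1i3 (CAR) had 1.64 and 0.996. Nr1i2 (PXR) was below the requirement, with 1.21 and 0.277. In contrast, the aryl hydrocarbon receptor Ahr had 7.06 and 15.03 (log2 difference 1.05) and its partner Arnt had 9.68 and 17.3 (0.81). Ppara had 1.84 and 2.90 (0.61, counting interval 0.17 to 1.05), close to the 1.5-fold line. The longest transcripts of Ahr, Arnt and Ppara held 5548, 4325 and 3413 bases, and their values without the length trend are not given here.
Of 17 other phase I enzymes, 13 passed and 9 were at least 1.5-fold lower (69.2%, against 13.2% of all genes), with a median of -0.76. Ces3a, a carboxylesterase, had 15.6 and 3.47. Of the flavin monooxygenases, Fmo1 had 16.5 and 16.9, whereas Fmo5 was at least 1.5-fold lower, with 7.78 and 4.65. Fmo2, below the level requirement, had 1.07 and 0.751. The 3 P450-fold enzymes examined outside the naming rule lay within 1.5-fold. Other P450 genes whose symbols do not match the rule, such as Cyp3a41a, were not examined. The prostacyclin synthase Ptgis had 55.9 and 56.5, the thromboxane synthase Tbxas1 had 43.7 and 46.8, and the sterol demethylase Cyp51 had 14.4 and 13.3. The genes set aside were all lower: Cyp2e1, the enzyme best known for activating CCl4, had 94.3 and 26.9, Cyp1a2 had 15.5 and 5.51, and Cyp2f2 had 5.81 and 2.59.

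**Figure D4:**
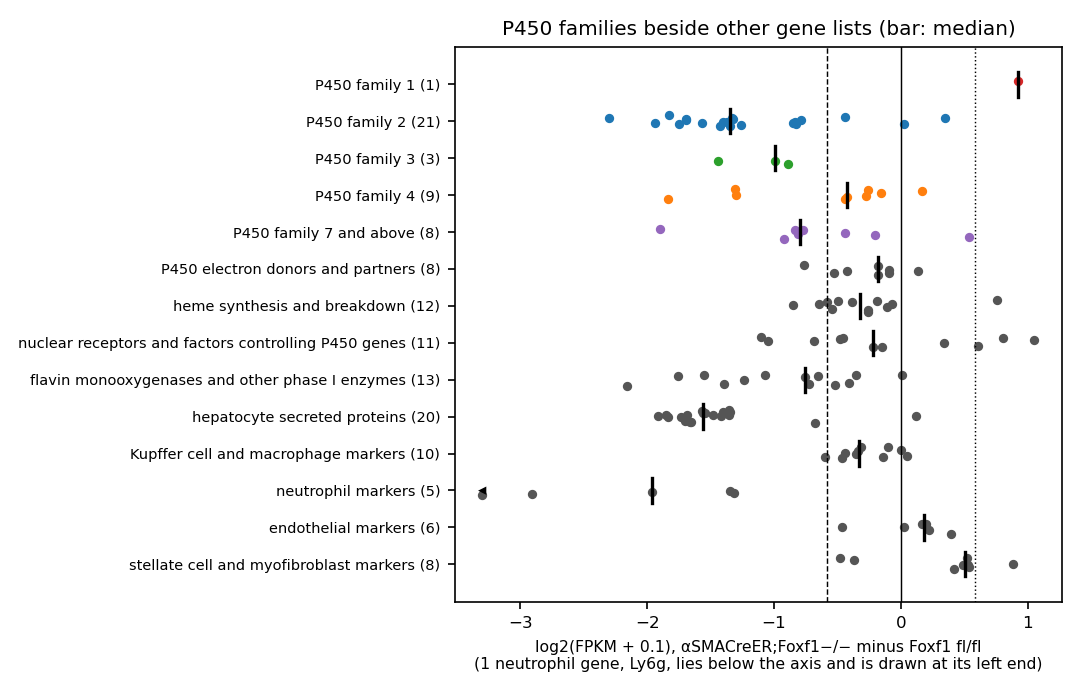
Log2 differences (x axis, αSMACreER;Foxf1-/- minus Foxf1 fl/fl) of the genes above the level requirement in each P450 family and in each other list, 1 point per gene, with the number of genes in brackets and the median as a black bar. Hepatocyte secreted protein genes have a median of -1.56 and family 2 of -1.35, while the partners of P450 enzymes have -0.18. The arrowhead at the left end marks Ly6g, which lies beyond the axis.

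Hepatocyte and neutrophil markers were lower along with most P450 genes, whereas macrophage, stellate cell and endothelial markers mostly stayed within 1.5-fold. Of 20 genes for proteins that hepatocytes secrete, 19 were at least 1.5-fold lower (summed FPKM 8059 and 3711, median log2 difference -1.56, with C3 the exception at 812 and 897), and none was at 0. Albumin (Alb) had 2292 and 912, and transthyretin (Ttr) had 322 and 86.8. Of the 42 P450 genes, 9 had a larger fall than that median. All 5 neutrophil markers were at least 1.5-fold lower (1906 and 762), and the defining Ly6g, at 9.82 in Foxf1 fl/fl cells, was listed at 0 in αSMACreER;Foxf1-/- cells. The calprotectin subunits S100a8 and S100a9 had 625 and 256, and 1258 and 504. Of 10 Kupffer cell and macrophage markers, 1 was at least 1.5-fold lower (10%, against 13.2% of all genes). Their summed FPKM was 10361 and 8753. To any extent 8 of the 10 were lower, and the median log2 difference was -0.33. The gene past 1.5-fold was Clec4f, with 1117 and 753, while Adgre1 had 162 and 165. Of 10 stellate cell and myofibroblast markers, 8 passed the requirement and 1, Des, was at least 1.5-fold higher, with 1.70 and 3.29 (sum 431 and 620). Of the 8, 6 were higher to any extent and 2 lower, with a median log2 difference of 0.51. Those higher included the collagen genes Col1a1 (70.2 and 103), Col1a2 (102 and 151) and Col3a1 (115 and 164). The 2 that were lower were Acta2 and Tagln. Acta2, whose promoter drives the Cre, had 7.77 and 5.65, a log2 difference of -0.48 (-0.83 to -0.13), and Tagln had 5.51 and 4.31. Reln, below the requirement, had 0.683 and 0.313. The stellate cell marker Lrat was near 0, at 0.0778 and 0.111. None of 6 endothelial markers passed 1.5-fold (615 and 607), with Pecam1 at 93.3 and 96.6 and Stab2 at 64.0 and 85.9. The part of these cells in the P450 differences was not tested, and in pooled RNA fewer cells of a type cannot be told apart from less RNA per cell.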

How the data were processed

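The RNA-seq libraries were made by the authors from pooled RNA with a TruSeq kit and sequenced as 75-base single-end reads. The authors ran Tophat and Cufflinks (build mm10 per the submitters' processing notes, versions not given in the sources used here) and deposited an FPKM and a status for each Ensembl gene. Their methods also name read filters and DESeq normalization, and whether these entered the FPKM is not stated. These values depend on how Cufflinks divided reads among related genes, and no read counts were analysed here.

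Of 38320 entries, 36490 had a symbol in GENCODE M21 (GRCm38), and 3 with a status other than OK were left out. The entry with the highest mean was kept for each symbol. FPKM was divided by the median ratio over 12016 genes with at least 1 in both libraries, and log2(FPKM + 0.1) was compared at 1.5-fold among genes with a mean of at least 1. Read totals came from the steps between small FPKM values (about 9756815 and 11333475 reads, assumed fragment length 200 bases, longest transcript). Of the low values, 49.1% and 52.2% lay within 0.1 of a whole read, so intervals are rough. The procedure was tested on simulated counts made with the same length formula and fragment length. That simulation held no reads shared between genes and no spread between animals, so it cannot speak to either. The members, lists and settings were chosen with earlier results of these data known. Named were the 4 most abundant genes of each family group, the 5 largest falls, all that did not fall 1.5-fold, any listed at 0 in 1 library and at 0.5 or more in the other (none), the first 2 genes of each list and those past 1.5-fold against its main direction. Further genes were named as examples after their values were seen. Shared windows were exact 75-base matches on either strand among GENCODE M21 transcripts. Computation used matplotlib 3.10.9, scipy 1.17.1 and pandas 2.3.3 with numpy 2.4.6 under Python 3.11.15.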

Additional observations from a re-analysis of the deposited data

How the results depend on the processing

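No paired analysis was possible because there was 1 pool for either genotype. The number of P450 genes at least 1.5-fold lower, 29, was 19 at 2-fold, 12 at a mean FPKM of at least 5, where 19 genes remained, and 15 of 24 among genes with under 5% shared windows, a choice made after the data were seen. It was 28 under equal FPKM totals, 25 at a pseudocount of 1, 26 without the length trend and 39 of 90 without a filter. The share of all genes at least 1.5-fold lower was 13.2% in the main comparison and 11.2% at a mean FPKM of at least 5. It was 8.76% under equal FPKM totals, 10.7% at a pseudocount of 1, 11.1% without the length trend and 8.62% without a filter. The number of P450 genes at least 1.5-fold higher, 1, was 2 under equal FPKM totals and under upper-quartile scaling, 5 without a filter on low values, and 0 at 2-fold and at a mean FPKM of at least 5. Without a filter the median log2 difference went from -0.91 to -0.28, and that of family 2 from -1.35 to -0.61, since genes at 0 in both libraries then entered. The log2 ratio of the summed FPKM, -0.75, was -0.55 under equal FPKM totals and -0.70 under upper-quartile scaling. With equal totals the median over all genes was 0.21, with 2891 past 1.5-fold upward and 1140 downward, against 1654 and 1692 in the main comparison. No family median changed sign under an alternative that gave one. Estimated read numbers limit the genes below the level requirement, and animal-to-animal spread was not measured.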
